A study of Mus musculus with 5 samples.

Results

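CD8 Treg, the CD8+ regulatory T cells of the mouse spleen, were compared with CD4 Treg, the CD4+ regulatory T cells sorted from the same tissue. The comparison covers every gene with at least 1 RPKM (reads scaled to gene length and to library depth) in the CD8 Treg library or in both CD4 Treg libraries. These were 11843 of the 35275 genes in the table: 9807 reached that level in both groups, 1468 in CD8 Treg alone and 568 in CD4 Treg alone. Genes of chromosomes X and Y (377 of the 11843) were left out of the summary of differences, which leaves 11466. The genes nearest to the threshold were sought among autosomal protein-coding genes, with predicted genes left out. Nsl1 and Bcl2a1a were just inside it, at 1.0003 and 1.01 RPKM in CD8 Treg. Cd209a and Dna2 were just outside it, both at 0.999.

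All cells came from the spleens of wild-type C57BL/6 mice aged 3 months; no treatment or transgene is named. The labels describe a CD8 enrichment for every sample, CD4 Treg included, and then a flow cytometry sort, but not the markers of the sort. There were 2 libraries of CD4 Treg, 1 of CD8 Treg and 2 of a population labelled CD49lo. The series sets CD8+ effector-like cells beside both kinds of Treg, and CD49lo is that population only by elimination. Every CD8 Treg value therefore rests on n = 1. The labels do not say whether replicates were separate animals, so the p-values speak only of the spread among these libraries, part or all of which may be technical.

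CD4 Treg depend on the transcription factor Foxp3, carry the interleukin 2 receptor chain CD25 and the inhibitory receptor CTLA-4, and restrain other T cells by taking up interleukin 2, by covering costimulatory ligands and by releasing TGF-beta and interleukin 10. CD8 regulatory T cells of the mouse are described as Foxp3-negative, CD122-positive lymphocytes that carry inhibitory Ly49 receptors, recognise the nonclassical MHC class I molecule Qa-1 on activated cells and kill through perforin. The transcription factor Helios and the cytokine interleukin 15 have been tied to their upkeep.

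The libraries held 5441444 to 8354971 reads in genes, and 1 read in a gene of 1 kilobase was worth 0.120 to 0.184 RPKM. In the CD8 Treg library 6.86% of reads fell on Gm26917, a noncoding transcript, against 3.33% to 4.16% in the other 4, and protein-coding ribosomal protein genes took 14.7%, against 9.74% to 10.9%. Sex-linked transcripts set the CD4 Treg libraries apart: Xist, the noncoding RNA of the inactive X chromosome, was at 0.0834 RPKM in CD8 Treg, against 35.5 and 27.2 in CD4 Treg and 0.0269 and 0 in CD49lo. Ddx3y, on the Y chromosome, was at 18.3 RPKM in CD8 Treg, compared to 0.0701 and 0 in CD4 Treg and 18.3 and 27.4 in CD49lo. The labels give no sex, and this split cannot be told apart from the difference between CD4 Treg and CD8 Treg.

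Compared with CD4 Treg, the CD8 Treg library was rich in Ly49 and other natural killer (NK) cell receptors, T-box transcription factors and granule genes. B cell genes (17 of 17 called higher) and myeloid genes (14 of 17) were higher in it as well. The CD4 Treg libraries were rich in Foxp3, its partner genes, costimulatory receptors, immediate early genes and interferon response genes. In RPM (reads scaled to depth alone), Ly49 genes summed to 309 in CD8 Treg and to 49.1 and 202 in CD49lo. The other NK receptor genes summed to 849 in CD8 Treg, below the 1152 and 2089 of CD49lo. Granule genes (2450 against 3204 and 5214) and T-box and effector factors (2173 against 2574 and 3198) were also below both CD49lo libraries. Differences are given as log2 differences, CD8 Treg minus CD4 Treg, on the scale log2(RPKM + 0.5), ± SE from limma (a linear model over all 5 libraries in 3 groups, two-sided p, Benjamini-Hochberg over all genes tested). Genes with an adjusted p under 0.05 are called. Of 13298 genes tested, 2242 were called (16.9%), 8.51% as higher and 8.35% as lower in CD8 Treg. Of the 11843 genes of the comparison 11403 were tested, 11044 of them autosomal or mitochondrial, and 2181 of these were called (19.7%): 1103 higher in CD8 Treg (9.99%) and 1078 lower (9.76%). The CD8 Treg value lay outside the range of the 2 CD4 Treg values for 83.6% of these 11044 genes (81.6% of all genes tested), so a lack of overlap says little about a single gene. The higher genes had a median difference of 1.79 log2 units and the lower ones of 1.35 in size. Differences of at least 4 log2 units numbered 100 higher and 35 lower, and of at least 6 log2 units 16 and 4. Over all genes tested the median log2 difference was 0.02.

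The number of calls rested on the replicated libraries, since a single CD8 Treg library gives no spread of its own. It was 942 without CD4 Treg replicate 1 and 740 without CD4 Treg replicate 2. By limma it was 0 without either CD49lo replicate, where 3225 and 3194 genes still had an unadjusted p under 0.05 and limma-voom on the recovered reads called 2678 and 2507. The counts of every list below are 0 as well in those fits without a CD49lo replicate; by limma-voom without either of them the CD4 Treg signature, for example, had 30 genes lower in both cases. The limma-voom fits without a CD49lo replicate were added after the data were seen, and limma-voom on all 5 libraries called fewer genes, 1759. Where the loss of a CD4 Treg replicate moves a list's count by over 1.5 times, both counts are given beside it. Every list count stands against the shares of all genes tested, 8.51% called higher in CD8 Treg and 8.35% called lower. The counts are out of all genes of a list in the data, and in some lists part of them had too few reads to be tested. Unlike the summary of differences, the list counts keep genes of chromosome X, such as Foxp3, Cxcr3 and Cd40lg.

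**Figure D1:**
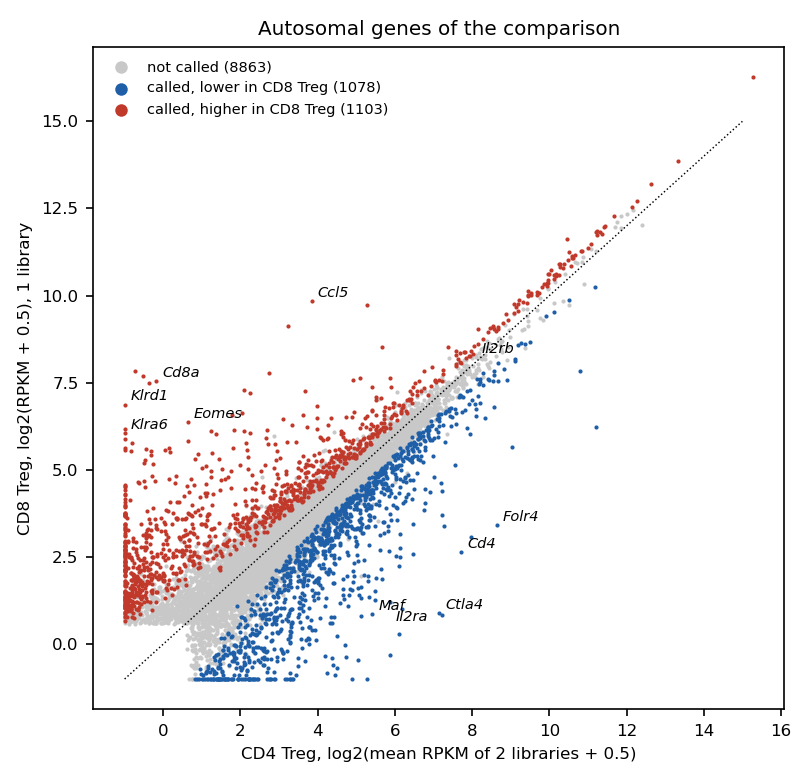
Levels of the 11044 tested genes outside chromosomes X and Y, as log2(mean RPKM of the 2 CD4 Treg libraries + 0.5) on the x axis and log2(RPKM + 0.5) of the CD8 Treg library on the y axis; the dotted line marks equal levels. Red points are the 1103 genes called higher in CD8 Treg, blue points the 1078 called lower and grey points the rest; Cd8a, Klrd1, Klra6 and Eomes sit far above the line, Il2ra, Ctla4, Folr4 and Maf far below it, and Il2rb close to it.

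Genes that mark the cells are given first. The markers of the sort are not named, so these differences may follow from the sort itself and are no independent check of the labels. Cd8a (ENSMUSG00000053977, mm10 chromosome 6, 71373427 to 71379171), a chain of the CD8 coreceptor, was at 187 RPKM in CD8 Treg, against 0.412 and 0.352 in CD4 Treg and 215 and 255 in CD49lo. Eomes (ENSMUSG00000032446, mm10 chromosome 9, 118478212 to 118486132), a T-box transcription factor of memory CD8 T cells and NK cells, was at 82.4 RPKM in CD8 Treg, compared to 1.18 and 0.929 in CD4 Treg and 56.99 and 55.2 in CD49lo. Klrd1 (ENSMUSG00000030165, mm10 chromosome 6, 129591782 to 129598775), the CD94 chain of receptors for Qa-1, had 0 reads in both CD4 Treg libraries and was at 117 RPKM in CD8 Treg, with 81.9 and 157 in CD49lo. For all 3 the CD8 Treg value was far above both CD4 Treg values and of the order of the CD49lo values. The log2 difference was 7.84 ± 0.18 for Cd8a (limma adjusted p = 4.65e-08) and 5.85 ± 0.20 for Eomes (adjusted p = 5.67e-07). Klrd1 was at least 417-fold higher in CD8 Treg, against a floor of 3 reads over the CD4 Treg group (adjusted p = 4.49e-06). Floors and bounds of this kind cover counting error only.

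The 3 genes that mark CD4 Treg ran the other way. Foxp3 (ENSMUSG00000039521, mm10 chromosome X, 7579676 to 7595243), the lineage factor, was at 0.387 RPKM in CD8 Treg, against 146 and 146 in CD4 Treg and 1.66 and 0.795 in CD49lo. Ctla4 (ENSMUSG00000026011, mm10 chromosome 1, 60887000 to 60915832), the inhibitory receptor gene, was at 1.36 RPKM in CD8 Treg, compared to 137 and 146 in CD4 Treg and 14.7 and 9.54 in CD49lo. Maf (ENSMUSG00000055435, mm10 chromosome 8, 115682942 to 115707794), a transcription factor of follicular and interleukin 10-producing T cells, was at 1.32 RPKM in CD8 Treg, compared to 42.9 and 40.9 in CD4 Treg and 4.69 and 3.98 in CD49lo. In each case the CD8 Treg library was the lowest of the 5. The log2 differences were -7.31 ± 0.31 for Foxp3 (limma adjusted p = 1.86e-06), -6.17 ± 0.26 for Ctla4 (1.86e-06) and -4.46 ± 0.19 for Maf (1.86e-06). Against CD49lo the log2 difference was -2.62 ± 0.26 for Ctla4 (adjusted p = 0.00112) and -1.30 ± 0.19 for Maf (0.00552), and Foxp3 did not pass (-0.85 ± 0.31, adjusted p = 0.179). In the comparison with CD49lo 5.37% of the genes tested were called; it shares the CD8 Treg library with the main comparison, so its values are given beside the others as a description. Cd4 itself was at 5.77 RPKM in CD8 Treg, against 201 and 219 in CD4 Treg and 16.5 and 15.6 in CD49lo. In bulk RNA, fewer cells that express a gene and less RNA per cell cannot be told apart.

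Of 17 genes of the CD4 and CD8 lineages, 7 were called higher in CD8 Treg and 7 lower (without CD4 Treg replicates 1 and 2, 6 and 4 higher and 5 and 5 lower). The higher ones included Cd8b1, the second chain of the CD8 coreceptor (log2 difference 6.000 ± 0.14), the CD8 lineage factor Runx3 (1.38 ± 0.15) and Crtam, an adhesion receptor of class I-restricted T cells (5.23 ± 0.38). Among the lower ones were Zbtb7b, which directs the CD4 lineage, at 45.1 and 44.7 RPKM in CD4 Treg and 3.23 in CD8 Treg (log2 difference -3.51 ± 0.19), and Gata3 (-1.38 ± 0.17). The chromatin organiser Satb1 was higher (1.06 ± 0.17, 57.1 and 56.02 RPKM against 109.8), and Cbfb, the partner of the RUNX factors, did not pass (95% interval of the log2 difference -0.72 to 0.08).

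The 12 largest differences in favour of CD8 Treg, among autosomal genes at 10 RPM or more in the group with more, were Klrd1, Ly6c2, Cd8a, Klra7, Klra6, Samd3, Klre1, Ccl5, Xcl1, Cd8b1, Klrc1 and Eomes. Ly6c2 encodes Ly6C, a surface protein of memory CD8 T cells and monocytes. It was at 178 RPKM in CD8 Treg, against 0.421 and 0.137 in CD4 Treg and 60.3 and 110.1 in CD49lo (log2 difference 7.97 ± 0.35, limma adjusted p = 2.27e-06). Samd3, a gene transcribed in cytotoxic lymphocytes, was at 53.8 RPKM in CD8 Treg, compared to 0 and 0.1403 in CD4 Treg and 18.00 and 30.1 in CD49lo (log2 difference 6.68 ± 0.40). For both genes the CD8 Treg library was the highest of the 5, yet the log2 difference from CD49lo did not pass (adjusted p = 0.0804 and 0.0965). Ly6c2 has the near-identical neighbour Ly6c1, which was at 3.12 RPKM in CD8 Treg, against 48.5 and 51.8 in CD4 Treg and 0 and 3.07 in CD49lo, so the reads assigned to each of this pair are uncertain. Ly6c1 is named after its values were seen.

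The 12 largest differences in favour of CD4 Treg were Il2ra, Penk, Ctla4, Lrrc32, Apol9b, Gpr83, Trib1, Ccr4, Folr4, Nrp1, Sp6 and Spock2. Il2ra (CD25) was at 1.302 RPKM in CD8 Treg, against 142 and 154 in CD4 Treg and 2.95 and 1.69 in CD49lo (log2 difference -6.28 ± 0.27, limma adjusted p = 1.86e-06). Penk, the precursor of enkephalin peptides, was at 34.3 and 42.9 RPKM in CD4 Treg and had 0 reads in CD8 Treg, at least 112-fold lower. Trib1, a pseudokinase that binds Foxp3 in regulatory T cells, was at 0.0435 RPKM in CD8 Treg, against 22.3 and 20.4 in CD4 Treg and 3.36 and 3.67 in CD49lo. CD8 Treg was below CD49lo as well for Trib1 (log2 difference from CD49lo -2.84 ± 0.30, adjusted p = 0.00119), Nrp1 (-2.08 ± 0.18, 0.000451), Spock2 (-2.52 ± 0.42, 0.00985), Ccr4 (-1.82 ± 0.36, 0.0201) and Folr4 (-0.88 ± 0.17, 0.0163). Apol9b, an apolipoprotein L family gene with close copies, had 0 reads in CD8 Treg against 31.3 and 27.4 RPKM in CD4 Treg.

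**Figure D2:**
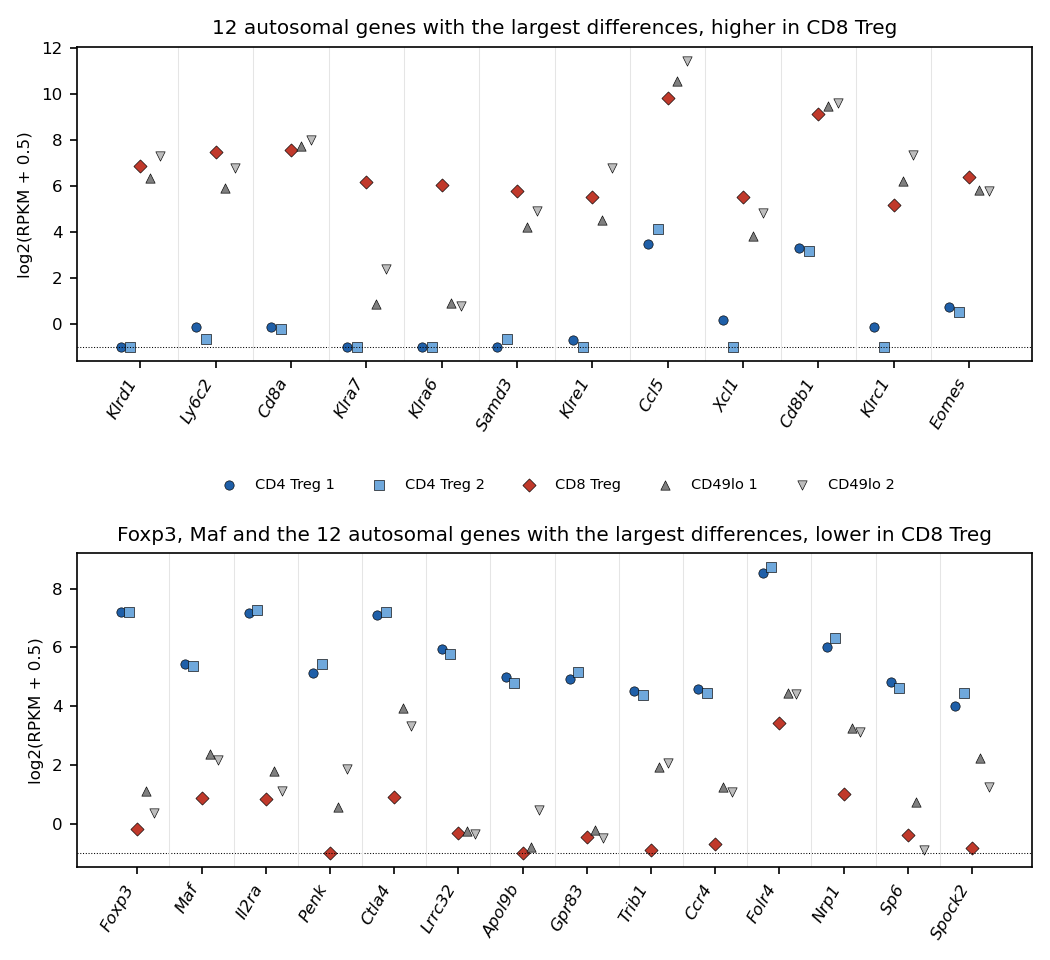
Levels of the 12 genes with the largest differences in each direction, with Foxp3 and Maf, as log2(RPKM + 0.5) in each of the 5 libraries; each point is 1 library and the dotted line marks 0 reads. In the upper panel the CD8 Treg diamonds stand at least 5 log2 units above both CD4 Treg points for every gene, and Klra6 and Klra7 are also well above CD49lo; in the lower panel the CD8 Treg diamonds are near the line of 0 reads for most genes.

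Receptors of NK cells were higher in CD8 Treg. Ly49 receptors bind MHC class I molecules and most of them inhibit the cell. Of the 11 Ly49 genes in the table, all tested, 9 were called higher in CD8 Treg and 0 lower, against 8.51% of all genes tested. The median log2 difference of the 11 was 4.81, or 5.35 with the genes that had 0 reads in CD4 Treg set at their lower bound. The labels do not say whether these receptors were among the markers of the sort. Klra6 (ENSMUSG00000061769, mm10 chromosome 6, 130013033 to 130026954) had 0 reads in both CD4 Treg libraries and was at 65.8 RPKM in CD8 Treg, with 1.39 and 1.23 in CD49lo. Klra7 (ENSMUSG00000067599, mm10 chromosome 6, 130218605 to 130233322) likewise was without a read in CD4 Treg and was at 71.7 RPKM in CD8 Treg, with 1.301 and 4.69 in CD49lo. They were at least 285-fold and 307-fold higher in CD8 Treg than in CD4 Treg (limma adjusted p = 2.89e-05 and 9.69e-05), and higher than in CD49lo by 5.32 ± 0.51 and 4.69 ± 0.65 log2 units.

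Among the other Ly49 genes, Klra1 (0 reads in CD4 Treg) was at 23.3 RPKM in CD8 Treg, with 0.933 and 0.6397 in CD49lo, and Klra3 was at 35.4 RPKM in CD8 Treg, against 0.521 and 0.148 in CD4 Treg and 3.96 and 2.58 in CD49lo. Klra9 was at 23.99 RPKM in CD8 Treg, between the CD49lo values of 18.5 and 142, and its log2 difference from CD49lo did not pass (-0.95 ± 0.90, adjusted p = 0.6304). Klra5 was read in CD8 Treg alone, at 3.01 RPKM, and had 0 reads in the other 4 libraries. Klra2 and Klra17 did not pass against CD4 Treg (adjusted p = 0.0894 and 0.225); Klra2 was at 4.86 and 3.13 RPKM in CD49lo and 1.01 in CD8 Treg, and Klra17 at 2.34 and 5.18 and 1.12. For these 2 genes the CD8 Treg value lay below both CD49lo values. Ly49 genes are near-identical copies in 1 cluster on chromosome 6, so how reads were divided among them is uncertain.

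The promoters of the extreme genes are shown for 2 higher and 2 lower genes, because these windows, the 250 bases before each start in RefSeq (build GRCm38.p6, the coordinates of mm10), let both sets be read side by side. The capitals mark the E-box letters CACCTG or their reverse complement, a motif bound by E proteins and by ZEB factors.
Klra6 (chr6:130026955-130027204, minus strand): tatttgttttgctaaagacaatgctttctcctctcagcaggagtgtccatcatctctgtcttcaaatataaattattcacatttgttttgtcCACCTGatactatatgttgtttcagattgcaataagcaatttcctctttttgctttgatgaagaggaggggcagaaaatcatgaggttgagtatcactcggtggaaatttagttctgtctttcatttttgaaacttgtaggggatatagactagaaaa
Klra7 (chr6:130233323-130233572, minus strand): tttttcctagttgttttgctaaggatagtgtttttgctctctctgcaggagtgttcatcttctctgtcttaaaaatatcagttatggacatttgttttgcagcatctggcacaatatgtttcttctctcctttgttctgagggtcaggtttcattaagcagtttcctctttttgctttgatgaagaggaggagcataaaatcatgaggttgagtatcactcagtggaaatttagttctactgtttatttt
Ctla4 (chr1:60908775-60909024, plus strand): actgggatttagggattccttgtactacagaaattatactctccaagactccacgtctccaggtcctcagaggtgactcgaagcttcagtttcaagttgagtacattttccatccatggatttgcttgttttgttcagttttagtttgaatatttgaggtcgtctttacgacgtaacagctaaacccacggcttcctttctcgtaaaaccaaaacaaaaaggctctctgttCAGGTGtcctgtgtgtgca
Folr4 (chr9:14903768-14904017, minus strand): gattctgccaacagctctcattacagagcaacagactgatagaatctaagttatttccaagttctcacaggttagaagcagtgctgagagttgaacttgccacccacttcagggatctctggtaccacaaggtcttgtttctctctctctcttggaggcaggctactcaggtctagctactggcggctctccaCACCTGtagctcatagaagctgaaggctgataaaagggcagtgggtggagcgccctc
The Klra6 and Klra7 windows carried the same base at 191 of 283 columns of a global alignment (67.5%). Letters of 4 motifs were sought on both strands in all start windows of a gene; 9 of the 12 extreme higher genes and 8 of the 12 extreme lower genes had a window, and 27025 genes had one in all. CACCTG was in 2 of the 9 higher genes (Klra6, and Klra7 in a window of another start than the one shown) and in 4 of the 8 lower ones (Ccr4, Ctla4, Gpr83 and Folr4), against 19.4% of all genes. The RUNX core TGTGGT was in 4 of the 9 (Klrc1, Klre1, Ly6c2 and Xcl1) and in 1 of the 8 (Folr4), against 15.9%. The T-box core TCACACC was in 2 of the 9 (Samd3 and Xcl1) and 1 of the 8 (Gpr83), against 3.84%, and the forkhead core TGTTTAC was in 0 of either, against 3.54%. The T-box core ends and the E-box begins with the same letters, CACC, so these motifs can overlap. These matches are counts of letters in short windows and carry no test.

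Beyond Ly49, 16 of 25 other NK receptor and adaptor genes were called higher in CD8 Treg and 2 lower. The median log2 difference of the 24 tested was 2.38. Klrc1, which encodes the inhibitory NKG2A chain that pairs with CD94 and binds Qa-1, was at 36.02 RPKM in CD8 Treg, against 0.406 and 0 in CD4 Treg and 74.5 and 163 in CD49lo (log2 difference 5.86 ± 0.48, limma adjusted p = 6.34e-05). Klrk1, which encodes the activating NKG2D receptor, was at 14.4 RPKM in CD8 Treg, compared to 0.605 and 0.0575 in CD4 Treg and 34.97 and 111 in CD49lo (log2 difference 4.35 ± 0.60). For both genes the CD8 Treg value lay above CD4 Treg and below both CD49lo values. Ncr1, which encodes NKp46 and marks NK cells, was without a read in CD4 Treg and was at 18.8 RPKM in CD8 Treg, above the CD49lo values of 5.28 and 7.03 (log2 difference from CD49lo 1.68 ± 0.48, adjusted p = 0.0819). The adaptor genes Tyrobp and Hcst were higher by 5.83 ± 0.39 and 1.64 ± 0.29 log2 units. The 2 lower genes were Klrg1, a receptor of terminally differentiated cells, at 0.582 RPKM in CD8 Treg, against 13.5 and 11.7 in CD4 Treg and 34.5 and 141 in CD49lo, and Cd96 (log2 difference -0.70 ± 0.14). Neither of these 2 passed without CD4 Treg replicate 1 or 2.

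Markers of other cells moved with these receptors. The summed level of 17 genes used to mark NK cells was 41.9 and 38.8 RPM in the CD4 Treg libraries, 567 in the CD8 Treg library and 748 and 2023 in the CD49lo libraries; RPM are reads scaled to depth but not to gene length. Of these 17 genes 10 were higher in CD8 Treg and 1, Khdc1a, was lower (6 and 6 higher and 0 and 0 lower without CD4 Treg replicates 1 and 2). Of this list 15 genes had enough reads to be tested, and Eomes, Gzma, Klre1 and Tyrobp are also read in CD8 T cells. Cd3e, a gene of the T cell receptor complex, was at 310.2 RPKM in CD8 Treg, against 384 and 402 in CD4 Treg and 348 and 302 in CD49lo. A bulk level of Cd3e does not measure how many NK cells a library held. What part NK cells have in the receptor differences was not tested.

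Transcription factors followed the same divide. Of 18 T-box and effector factors, 8 were higher in CD8 Treg and 3 lower (without CD4 Treg replicates 1 and 2, 6 and 6 higher and 1 and 0 lower). Tbx21, which encodes T-bet, the factor of type 1 and cytotoxic programmes, was at 64.3 RPKM in CD8 Treg, against 2.203 and 1.99 in CD4 Treg and 55.2 and 90.5 in CD49lo (log2 difference 4.75 ± 0.27, limma adjusted p = 8.16e-06). Zeb2, a factor of terminal effectors, was at 4.14 RPKM in CD8 Treg, compared to 0.283 and 0.222 in CD4 Treg and 16.01 and 38.4 in CD49lo, higher than CD4 Treg (2.72 ± 0.42) and below both CD49lo values. Id2, an inhibitor of E proteins, was at 40.8 RPKM in CD8 Treg, compared to 19.3 and 23.4 in CD4 Treg and 189 and 232 in CD49lo (1.03 ± 0.19), and its relative Id3 was lower (-0.91 ± 0.19). Txk, a kinase counted in this list, was highest in CD8 Treg at 58.7 RPKM, against 18.2 and 18.5 in CD4 Treg and 23.2 and 23.2 in CD49lo. Prdm1 and Bhlhe40 were lower than in CD4 Treg (log2 differences -1.77 ± 0.26 and -1.45 ± 0.31).

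Factors of helper and follicular T cells were mostly lower in CD8 Treg: 12 of 16 were called lower (8 and 5 without CD4 Treg replicates 1 and 2) and 1 higher. Besides Maf, the lower ones included Hif1a, the hypoxia-responsive factor, at 17.3 RPKM in CD8 Treg, against 80.5 and 90.99 in CD4 Treg and 34.6 and 33.4 in CD49lo (log2 difference -2.17 ± 0.14, limma adjusted p = 1.48e-05). The nuclear receptor gene Rora was lower (-1.74 ± 0.20), as was the aryl hydrocarbon receptor gene Ahr (-2.71 ± 0.36). The gene that was higher was Pou2af1, a coactivator best known from B cells (2.67 ± 0.33), which moved with the B cell list given below.

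Genes of naive and stem-like T cells went both ways, 7 of 20 higher and 4 lower (without CD4 Treg replicates 1 and 2, 4 and 3 higher and 0 and 1 lower). Tcf7, which encodes TCF-1, was at 529 RPKM in CD8 Treg, against 265 and 307 in CD4 Treg and 418 and 310.4 in CD49lo (log2 difference 0.998 ± 0.18, limma adjusted p = 0.005195). CD8 Treg had the highest Tcf7 value of the 5 libraries. Lef1 and Il7r were higher as well (0.75 ± 0.13 and 1.55 ± 0.14), and Foxo1 was lower (-0.87 ± 0.16). Ccr7 (95% interval -0.52 to 0.35), S1pr1 (0.13 to 0.74) and Klf2 (0.00 to 0.58) did not pass.

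The CD4 Treg signature, genes known from Foxp3+ cells, was lower in CD8 Treg for 33 of 34 genes and higher for 0, against 8.35% of all genes tested called lower. The median log2 difference was -3.39, or -3.54 with the 3 genes without a read in CD8 Treg at their bound. Ikzf2, which encodes Helios, was at 3.96 RPKM in CD8 Treg, against 47.7 and 50.4 in CD4 Treg and 2.63 and 3.005 in CD49lo. Its CD8 Treg value was slightly above both CD49lo values and far below both CD4 Treg values (log2 difference from CD4 Treg -3.38 ± 0.16, limma adjusted p = 2.69e-06; from CD49lo 0.55 ± 0.16, 0.0862). Folr4, the folate receptor family member also named Izumo1r, was at 10.2 RPKM in CD8 Treg, compared to 373 and 422 in CD4 Treg and 21.3 and 20.8 in CD49lo (log2 difference from CD4 Treg -5.11 ± 0.17). Lrrc32 (mm10 chromosome 7, 98494222 to 98501831), which encodes GARP, the surface anchor of latent TGF-beta, was at 0.302 RPKM in CD8 Treg, compared to 61.3 and 54.9 in CD4 Treg and 0.345 and 0.279 in CD49lo (-6.14 ± 0.33, 5.70e-06).

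The other signature genes span surface enzymes, homing receptors and mediators. Nt5e and Entpd1, the enzymes that turn extracellular ATP into adenosine, were lower, with log2 differences of -2.07 ± 0.17 and -1.68 ± 0.21. Ccr8, a chemokine receptor of tissue Treg, was at 10.2 and 8.903 RPKM in CD4 Treg and had 0 reads in CD8 Treg and in CD49lo, at least 22.4-fold lower in CD8 Treg. The inhibitory cytokine gene Il10 was at 0.251 RPKM in CD8 Treg, against 4.799 and 7.01 in CD4 Treg and 0.365 and 0.9303 in CD49lo (log2 difference -3.03 ± 0.56), and Ebi3, a chain of interleukin 35, was lower as well (-2.12 ± 0.56). The gene that did not pass was Gpr15, a gut homing receptor, at 17.4 RPKM in CD8 Treg, against 21.9 and 22.7 in CD4 Treg and 5.75 and 5.43 in CD49lo (95% interval of the log2 difference -0.89 to 0.41). Against CD49lo, Gpr15 was higher in CD8 Treg by 1.68 ± 0.29 log2 units (adjusted p = 0.0108).

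Genes of the cytotoxic granule were mostly higher in CD8 Treg: 13 of 22 were called higher (10 and 8 without CD4 Treg replicates 1 and 2) and 2 lower, with a median log2 difference of 1.21. Prf1, which encodes perforin, was at 53.1 RPKM in CD8 Treg, against 5.96 and 6.26 in CD4 Treg and 53.2 and 86.2 in CD49lo (log2 difference 3.13 ± 0.26, limma adjusted p = 6.79e-05). Gzma, which encodes the serine protease granzyme A, was at 56.4 RPKM in CD8 Treg, compared to 1.47 and 0.628 in CD4 Treg and 304 and 1579.6 in CD49lo (5.36 ± 0.74, 0.00118). Gzmm was the granzyme for which CD8 Treg was highest, at 44.3 RPKM in CD8 Treg, compared to 1.503 and 2.28 in CD4 Treg and 15.2 and 25.9 in CD49lo (4.35 ± 0.40). Gzmb did not pass: at 5.798 and 4.28 RPKM in CD4 Treg and 8.59 in CD8 Treg its log2 difference had a 95% interval of -0.17 to 1.84, while the CD49lo libraries stood at 137 and 353 RPKM. CD8 Treg thus had perforin at the level of the lower CD49lo library, with Gzma below both CD49lo libraries and Gzmb near CD4 Treg. Nkg7, a granule membrane protein, and Ctsw, a cathepsin of cytotoxic cells, were higher by 5.17 ± 0.23 and 2.67 ± 0.22 log2 units, and Fasl, the death ligand, by 3.21 ± 0.48. The 2 lower genes were Srgn, the granule proteoglycan, and Stx11, a syntaxin of granule release (-0.98 ± 0.16 and -1.88 ± 0.23; 2 and 1 without CD4 Treg replicates 1 and 2).

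Among 22 secreted cytokines and chemokines, 4 were higher in CD8 Treg, all of them chemokines, and 8 lower (5 and 3 without CD4 Treg replicates 1 and 2). Ccl5 was at 911 RPKM in CD8 Treg, against 10.6 and 17.1 in CD4 Treg and 1501 and 2738 in CD49lo (log2 difference 6.14 ± 0.33, limma adjusted p = 5.70e-06). Xcl1, which attracts cross-presenting dendritic cells, was at 45.7 RPKM in CD8 Treg, compared to 0.616 and 0 in CD4 Treg and 13.7 and 28.3 in CD49lo (6.05 ± 0.63, 0.000238), highest in CD8 Treg. Ccl3 was without a read in CD4 Treg and was at 3.87 RPKM in CD8 Treg, and Ccl4 was higher by 4.23 ± 0.57 log2 units. Tgfb1, Ltb, Il16 and Csf1 were lower, with log2 differences of -0.59 ± 0.14, -0.81 ± 0.13, -0.62 ± 0.12 and -3.76 ± 0.32. Ifng did not pass, at 1.603 and 1.37 RPKM in CD4 Treg and 5.18 in CD8 Treg (limma adjusted p = 0.0795). Only 16 of the 22 genes had enough reads to be tested.

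**Figure D3:**
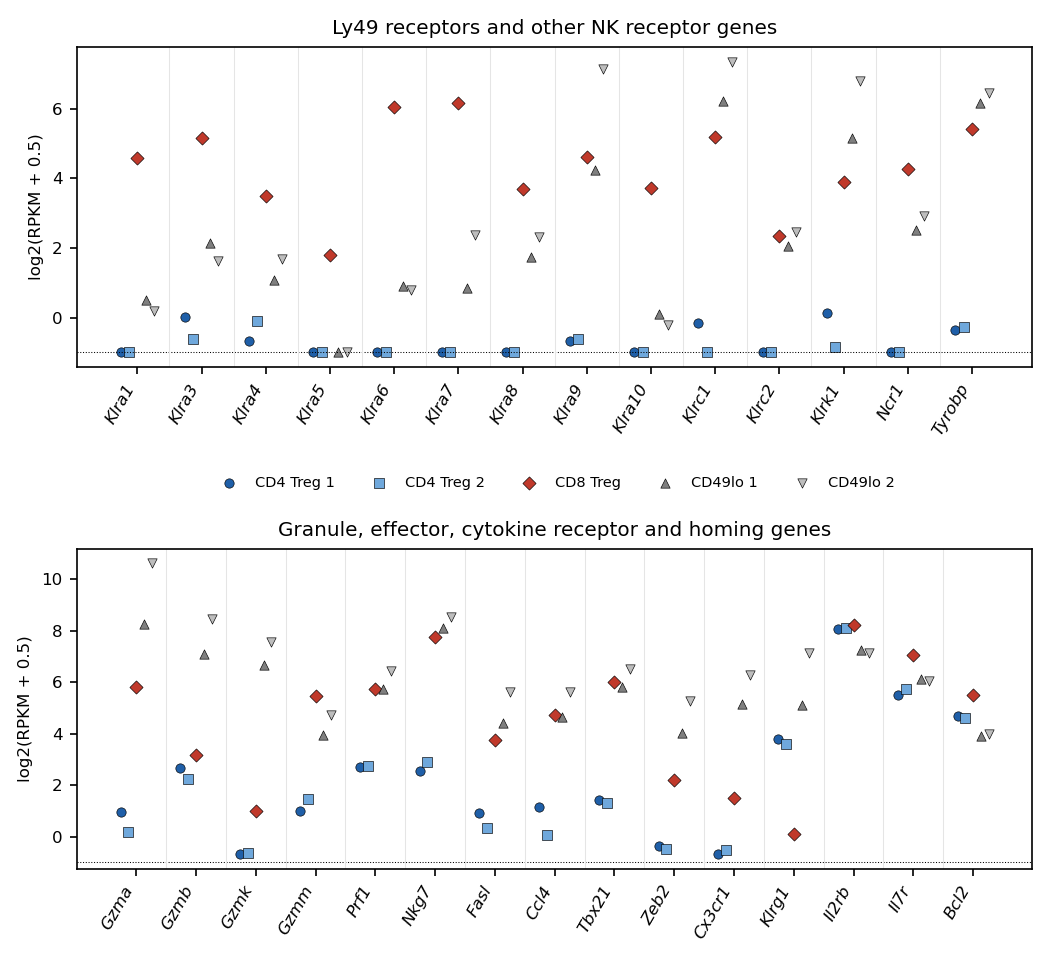
Levels of Ly49 and other NK receptor genes (upper panel) and of granule, effector, cytokine receptor and homing genes (lower panel) as log2(RPKM + 0.5), each point 1 of the 5 libraries and the dotted line 0 reads. Klra1, Klra3, Klra5, Klra6, Klra7, Klra8 and Klra10 are highest in CD8 Treg. Gzmb is near CD4 Treg in CD8 Treg and high in CD49lo, and Klrg1 is lowest in CD8 Treg. Il2rb is at a like level in CD4 Treg and CD8 Treg.

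Of 28 cytokine receptor genes, 5 were higher in CD8 Treg and 8 lower (3 and 3 lower without CD4 Treg replicates 1 and 2). Among all genes tested 8.51% were called higher and 8.35% lower, and the median log2 difference of the 28 was -0.13. The chains of the interleukin 2 receptor parted ways. Il2ra was among the 12 lowest genes named above, while Il2rb, which encodes CD122, the chain shared with the interleukin 15 receptor, was at 302 RPKM in CD8 Treg, against 267 and 277 in CD4 Treg and 152 and 141 in CD49lo. Its log2 difference from CD4 Treg did not pass (0.26 ± 0.12, 95% interval -0.01 to 0.53), and that from CD49lo was 1.18 ± 0.12 (limma adjusted p = 0.00112). Il2rg, the common gamma chain gene, did not pass either (95% interval -0.38 to 0.35). The interleukin 7 receptor gene Il7r was at 133 RPKM in CD8 Treg, against 45.1 and 52.9 in CD4 Treg and 68.8 and 66.1 in CD49lo, highest in CD8 Treg. The interleukin 18 receptor genes Il18r1 and Il18rap were higher than in CD4 Treg by 1.95 ± 0.18 and 3.98 ± 0.31 log2 units. Il1rl1, which encodes the interleukin 33 receptor, was lower (-2.91 ± 0.49), as were Ifngr2 (-2.39 ± 0.25), Tgfbr1 (-1.29 ± 0.18) and Il12rb1 (-1.45 ± 0.26).

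Of 21 chemokine and sphingosine receptor genes, 7 were higher in CD8 Treg and 6 lower (without CD4 Treg replicates 1 and 2, 5 and 4 higher and 4 and 4 lower). The shares over all genes tested were 8.51% higher and 8.35% lower. Cxcr3, a receptor of type 1 T cells, was at 74.9 RPKM in CD8 Treg, against 13.04 and 19.96 in CD4 Treg and 49.99 and 39.8 in CD49lo (log2 difference 2.29 ± 0.26). Cxcr6 (4.74 ± 0.41), Ccr2 (2.67 ± 0.22) and the eotaxin receptor gene Ccr3 (2.003 ± 0.46) were higher too. Ccr4, a receptor of skin-homing and regulatory T cells, was at 0.118 RPKM in CD8 Treg, compared to 23.3 and 21.1 in CD4 Treg and 1.89 and 1.64 in CD49lo, and Ccr6 was lower too (-3.61 ± 0.37). Cx3cr1 and S1pr5, receptors of terminal effectors, were higher than in CD4 Treg yet far below CD49lo: Cx3cr1 was at 2.34 RPKM in CD8 Treg, compared to 0.1297 and 0.197 in CD4 Treg and 34.95 and 76.8 in CD49lo (log2 difference from CD49lo -4.09 ± 0.44, adjusted p = 0.00133).

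Of 24 integrin and adhesion genes, 9 were higher in CD8 Treg (4 and 4 without CD4 Treg replicates 1 and 2) and 8 lower. Itga4, the CD49d chain, was at 20.2 RPKM in CD8 Treg, against 53.2 and 44.9 in CD4 Treg and 151 and 149 in CD49lo. CD8 Treg was thus the lowest, with log2 differences of -1.15 ± 0.13 from CD4 Treg and -2.73 ± 0.13 from CD49lo (limma adjusted p = 0.000435 and 8.04e-05). Itga6 (CD49f) and Itgae (CD103) were lower than in CD4 Treg (-1.91 ± 0.16 and -3.39 ± 0.31), and Itgb7, the partner of both Itga4 and Itgae, was lower too (-1.07 ± 0.12). Cd44 and Itgb1 were higher (0.77 ± 0.14 and 1.06 ± 0.14). Itgam and Itgax were higher as well (3.24 ± 0.40 and 3.42 ± 0.36); they stand also in the myeloid and dendritic cell lists given below.

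Costimulatory receptor genes were called lower for 14 of 21 and higher for 2 (without CD4 Treg replicates 1 and 2, 10 and 9 lower and 3 and 1 higher), with a median log2 difference of -0.97. Tnfrsf4 (OX40) was at 7.86 RPKM in CD8 Treg, against 236 and 266 in CD4 Treg and 6.48 and 6.01 in CD49lo (log2 difference -4.81 ± 0.22, limma adjusted p = 2.69e-06). Tnfrsf18 (GITR) was at 34.6 RPKM in CD8 Treg, compared to 179 and 199 in CD4 Treg and 28.9 and 33.95 in CD49lo (-2.32 ± 0.17). For both the CD8 Treg value was close to the CD49lo values. Icos (-2.09 ± 0.30), Tnfrsf9 (-3.77 ± 0.22), Cd28 (-0.64 ± 0.16) and the CD40 ligand gene Cd40lg (-3.20 ± 0.41, on chromosome X) were lower as well. The 2 higher genes were the ligands Tnfsf8 and Tnfsf14 (1.15 ± 0.23 and 2.08 ± 0.30). Several of these genes stand also in the CD4 Treg signature.

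Inhibitory receptors showed 9 of 18 lower and 4 higher (7 and 6 lower and 3 and 2 higher without CD4 Treg replicates 1 and 2). Pdcd1, which encodes PD-1, was at 2.05 RPKM in CD8 Treg, against 30.8 and 48.5 in CD4 Treg and 17.8 and 12.3 in CD49lo. Lag3 was at 2.47 RPKM in CD8 Treg, compared to 23.5 and 26.2 in CD4 Treg and 20.1 and 16.98 in CD49lo, and Tigit at 5.47 RPKM in CD8 Treg, compared to 71.8 and 104 in CD4 Treg and 19.9 and 16.5 in CD49lo. All 3 were lowest in CD8 Treg, with log2 differences from CD4 Treg of -3.85 ± 0.33 for Pdcd1 and -3.76 ± 0.29 for Tigit and a 95% interval of -3.54 to -2.46 for Lag3. In the order Pdcd1, Lag3 and Tigit, the log2 differences from CD49lo were -2.47 ± 0.33, -2.56 ± 0.24 and -1.51 ± 0.29 (limma adjusted p against CD49lo 0.00344, 0.000735 and 0.0176). Cd160, a receptor of NK cells and memory CD8 T cells, was higher (2.45 ± 0.33), as were Cd244, Lair1 and Pag1. Of 20 genes of the TGF-beta pathway 9 were lower (5 and 4 without CD4 Treg replicates 1 and 2) and 0 higher, among them the ligand Tgfb1, the activating integrin chain Itgb8 (-2.64 ± 0.41) and the repressor Ski (-1.39 ± 0.13), while Tgfbr2 (-0.27 to 0.28, 95% interval) and Smad3 (0.09 to 0.85) did not pass.

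**Figure D4:**
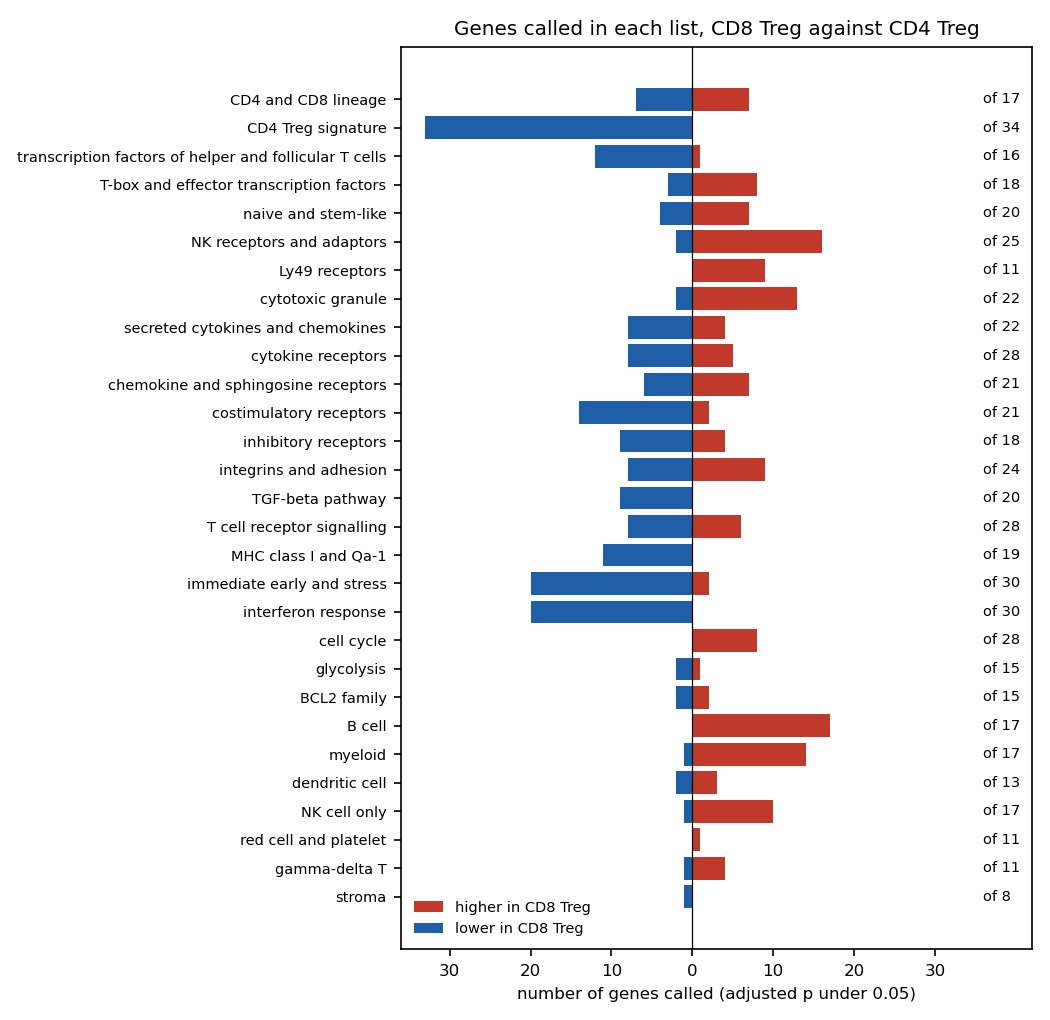
Number of genes called in each of 29 lists, red bars to the right for genes higher in CD8 Treg and blue bars to the left for genes lower, at an adjusted p under 0.05; the number at the right edge is how many genes of the list the table holds. The CD4 Treg signature reaches 33 of 34 to the left, interferon response and immediate early genes 20 of 30 each, and the B cell list 17 of 17 to the right.

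T cell receptor signalling genes went both ways, 6 of 28 higher and 8 lower (4 and 4 higher and 3 and 3 lower without CD4 Treg replicates 1 and 2), with a median log2 difference of -0.14. Among all genes tested 8.51% were called higher and 8.35% lower. Themis, a regulator of signalling in thymic selection, was at 39.8 RPKM in CD8 Treg, against 6.503 and 8.75 in CD4 Treg and 53.3 and 46.5 in CD49lo (log2 difference 2.43 ± 0.19, limma adjusted p = 5.04e-05). The phosphatase gene Ptpn6 was higher (1.10 ± 0.13), and Cd5, a marker of receptor signal strength, was lower (-0.97 ± 0.13, 216 and 230.1 RPKM against 105). Of 19 genes of MHC class I, 11 were lower and 0 higher, but only 2 and 1 without CD4 Treg replicates 1 and 2. H2-T23, which encodes Qa-1, was at 72.1 RPKM in CD8 Treg, against 129.6 and 138 in CD4 Treg and 96.4 and 121 in CD49lo (-0.78 ± 0.15, 0.00628). Class I genes are close copies, and the division of reads among them is uncertain.

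Immediate early and stress genes, which are induced within minutes of activation, were lower in CD8 Treg for 20 of 30 and higher for 2 (12 and 12 lower and 1 and 1 higher without CD4 Treg replicates 1 and 2), with a median log2 difference of -1.23. Dusp1, a phosphatase induced by stress, was at 5.13 RPKM in CD8 Treg, against 72.97 and 66.8 in CD4 Treg and 7.61 and 6.26 in CD49lo (log2 difference -3.54 ± 0.22, limma adjusted p = 1.30e-05). Jun was at 13.8 RPKM in CD8 Treg, compared to 114 and 101 in CD4 Treg and 15.2 and 10.5 in CD49lo (-2.81 ± 0.22), Nfkbia at 65.3 RPKM in CD8 Treg, compared to 242 and 246 in CD4 Treg and 78.9 and 75.1 in CD49lo (-1.79 ± 0.13). For all 3 the CD8 Treg value was close to the CD49lo values, and both CD4 Treg libraries were apart. Ier2 (95% interval of the log2 difference -0.26 to 0.40) and Cd69 (-0.63 to 0.31) did not pass, and the 2 higher genes were Fosl2 and Ier3 (1.54 ± 0.27 and 1.92 ± 0.53).

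Interferon response genes were lower for 20 of 30 and higher for 0 (median log2 difference -1.57). The guanylate-binding protein gene Gbp3 was at 20.01 RPKM in CD8 Treg, against 117 and 124 in CD4 Treg and 43.9 and 46.3 in CD49lo (log2 difference -2.45 ± 0.14, limma adjusted p = 6.20e-06). Genes that respond mainly to type I interferon differed between the 2 CD4 Treg libraries: Ifit1 was at 54.4 and 23.7 RPKM and Ifit3 at 64.9 and 21.2, against 3.41 and 15.7 in CD8 Treg. Ifit1 passed (-3.12 ± 0.47, adjusted p = 0.00197) and Ifit3 did not (-1.11 ± 0.50, adjusted p = 0.171). The guanylate-binding genes are close copies, so the values of single members are uncertain.

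Cell cycle genes were higher in CD8 Treg for 8 of 28 and lower for 0, but for 2 and 0 without CD4 Treg replicates 1 and 2. Mki67, the proliferation marker, was at 9.97 RPKM in CD8 Treg, against 4.43 and 5.199 in CD4 Treg and 66.04 and 39.9 in CD49lo (log2 difference from CD4 Treg 1.08 ± 0.26, limma adjusted p = 0.0198; from CD49lo -2.18 ± 0.26, 0.00212). Top2a was at 11.3 RPKM in CD8 Treg, compared to 4.54 and 3.63 in CD4 Treg and 62.7 and 45.8 in CD49lo (1.47 ± 0.23 and -2.07 ± 0.23). CD8 Treg was thus between the 2 other populations and nearer to CD4 Treg. Of 15 glycolysis genes 1 was higher and 2 lower (0 and 0 higher and 1 and 1 lower without CD4 Treg replicates 1 and 2), a share near the 16.9% called among all genes tested, with Gapdh (95% interval -0.35 to 0.28) and Ldha (-0.44 to 0.21) among those that did not pass. Of 15 genes of the BCL2 family, Bcl2 and Bbc3 were higher and Mcl1 and Bak1 lower; the counts of 2 and 2 were 2 and 1 higher and 1 and 0 lower without CD4 Treg replicates 1 and 2. Bcl2, which protects from cell death, was at 44.9 RPKM in CD8 Treg, against 25.2 and 24.3 in CD4 Treg and 14.6 and 15.4 in CD49lo, and Bbc3, which promotes it, at 31.1 RPKM in CD8 Treg, compared to 11.6 and 11.04 in CD4 Treg and 8.12 and 8.73 in CD49lo. CD8 Treg had the highest value of the 5 libraries for both (0.95 ± 0.13 and 1.53 ± 0.25 against CD4 Treg, 1.69 ± 0.13 and 1.96 ± 0.25 against CD49lo).

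Markers of cells outside the T lineage also separated the CD8 Treg library from CD4 Treg. All 17 B cell genes were higher in CD8 Treg (15 and 14 without CD4 Treg replicates 1 and 2), and their summed level was 122 and 113 RPM in the CD4 Treg libraries, 1199 in the CD8 Treg library and 2498 and 2766 in the CD49lo libraries. Cd74, the invariant chain of MHC class II, was at 369 RPKM in CD8 Treg, against 51.6 and 49.4 in CD4 Treg and 763 and 797 in CD49lo. Of 17 myeloid genes 14 were higher, and Ctss, which T cells transcribe too, was lower (1 and 0 without CD4 Treg replicates 1 and 2); the summed level was 524 and 538 RPM in the CD4 Treg libraries, 795 in the CD8 Treg library and 1327 and 1388 in the CD49lo libraries. Lyz2 was at 70.8 RPKM in CD8 Treg, compared to 4.202 and 1.89 in CD4 Treg and 224 and 271 in CD49lo, and Ly6g, which defines neutrophils, had 0 reads in CD8 Treg and in CD4 Treg. CD8 Treg lay between CD4 Treg and CD49lo in these sums.

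Of 13 dendritic cell genes 3 were higher, Flt3, Itgax and Irf8, and 2 lower, Bst2 and Ccr9 (without CD4 Treg replicates 1 and 2, 1 and 2 higher and 0 and 1 lower); the defining Clec9a and Clec10a had 0 reads in CD8 Treg and Xcr1 was at 0.111 RPKM. The summed level of 11 red cell and platelet genes was 17.1 and 8.09 RPM in the CD4 Treg libraries, 22.1 in the CD8 Treg library and 48.1 and 73.4 in the CD49lo libraries, with 1 gene called, Ppbp (1 and 0 without CD4 Treg replicates 1 and 2). Of 11 gamma-delta T cell genes 4 were higher and 1 lower (2 and 1 higher and 0 and 0 lower without CD4 Treg replicates 1 and 2). The higher ones included Tcrg-C2 and Tcrg-V4, whose transcripts alpha-beta T cells can also carry. Only 8 of the 11 were tested. Sox13 and Il17a, with 0 reads in CD8 Treg, were among those with too few reads, and Trdc was not among the genes of the series. The delta joining segment Trdj1, outside this list and chosen after its values were seen, had 18 reads in CD8 Treg and 0 in CD4 Treg. Of 8 stroma genes 0 were higher and 1, Pecam1, was lower (0 and 0 without CD4 Treg replicates 1 and 2); Pecam1 is also read in T cells. Only 3 of the 8 stroma genes and 9 of the 11 red cell and platelet genes had enough reads to be tested. The part of any of these cell types in the genes called higher, such as Fcer1g, Fcgr3, Tyrobp, Lair1 and Pou2af1, was not tested.

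**Figure D5:**
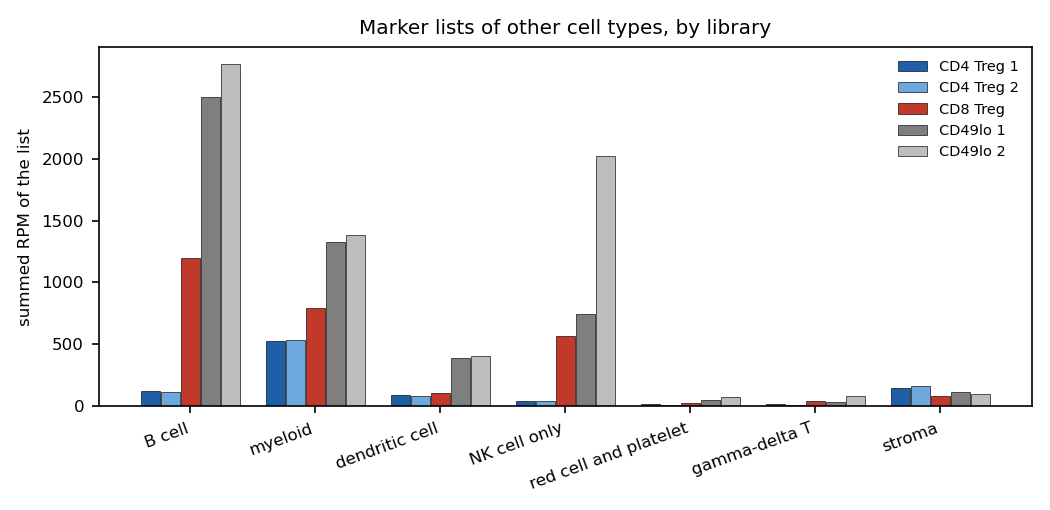
Summed RPM (reads scaled to depth alone) of the marker lists of other cell types in each of the 5 libraries; bars start at 0 and each bar is 1 library. The B cell sum is 1199 in CD8 Treg, above the 122 and 113 of the CD4 Treg libraries and under the 2498 and 2766 of the CD49lo libraries, and the NK cell sum shows the same order.

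By chromosome, the share of tested genes called higher in CD8 Treg was largest on chromosome 6 (91 of 600, 15.2%) and chromosome 13 (72 of 479, 15.03%) among the autosomes, against 9.99% of all genes outside X and Y. Chromosome 6 holds Cd8a, Cd8b1 and the NK gene complex with the Ly49, Klrc, Klrd1 and Klre1 genes named above. The share called lower ran from 6.26% on chromosome 13 to 12.3% on chromosome 10.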

How the data were processed

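RNA was sequenced from sorted spleen T cells. CASAVA, STAR and mm10 are named, without versions, per the submitters' processing notes. The authors deposited a table presented as counts; its values are RPKM, since each value times gene length was a whole multiple of 1 step in every library (100% within 0.02), which recovers the reads. All 5 sample columns were used.

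A count model (edgeR and DESeq2 included) was not run on values deposited as RPKM. Instead log2(RPKM + 0.5), scaled by TMM factors (trimmed mean of M values; 0.935 to 1.038) from the recovered reads, entered a linear model in limma (version 3.58.1, R version 4.3.3) with the 5 libraries as 3 groups, 2 residual degrees of freedom and a prior variance that follows the mean log2 RPM. The model takes the lone CD8 Treg library to vary as much as the other groups do. Genes needed what amounts to 10 reads in 1 library of median depth, and 15 reads in all. P-values are two-sided, with Benjamini-Hochberg over all 13298 genes tested. The fit was tested on simulated data in which all 5 libraries had the same spread. That simulation therefore cannot check the assumption made for the lone CD8 Treg library. A log2 difference on RPKM + 0.5 understates the change of low genes. No row without a gene name entered the test.

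The members and the 29 gene lists were chosen with earlier results of these data known, and some genes stand in several lists. Named are the marker genes, the 12 largest and 12 smallest log2 differences among called autosomal genes (10 RPM or more in the group with more, libraries not overlapping, and no predicted, small RNA or pseudogenes or receptor segments), up to 6 list members per direction by smallest p, and list members described as not passing; others were chosen after their values were seen. Promoter windows are from RefSeq. The alternatives are in the closing section. Raw reads are not analysed here, and some genes that the rule names are not reported here.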

Additional observations from a re-analysis of the deposited data

How the results depend on the processing

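Of the settings with all 5 libraries, 2174 and 2006 genes were called with 0.1 and 1 RPKM added, 2270 without a scaling factor, 2193 with median-of-ratios scaling, 1555 with a filter of 1 RPKM and 1759 by limma-voom, against 2181 in the report. Without a scaling factor the median log2 difference moved from 0.03 to -0.07 and 41.1% of calls were higher. Fewer were called with no filter on low reads (652: 344 higher, 308 lower), with one prior variance for all genes (1100: 559 and 541) and with the CD4 Treg and CD8 Treg libraries alone (735: 309 and 426). Leaving out 1 library gave 0 to 942 calls, 0 to 515 higher and 0 to 427 lower; the 0 came with either CD49lo library left out, where limma's prior degrees of freedom were 1.33 and 1.24 against 7.17. Fits without a library have 1 residual degree of freedom. Limma-voom without either CD49lo library, added after the data were seen, called 2678 and 2507.

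Of 197 named genes called against CD4 Treg, none changed sign in any setting run; 112 lost their call without a filter, 65 with one prior variance, 65 with 3 libraries, 46 and 66 without CD4 Treg replicates 1 and 2, and 197 without either CD49lo library. The 24 genes with the largest differences kept 24 calls in every setting with 5 libraries except no filter (16) and limma-voom (22). Klre1 against CD49lo turned sign in 1 fit, limma-voom without CD49lo replicate 1 (log2 difference -1.10 ± 0.183, adjusted p = 0.00066, against 0.03 and adjusted p = 0.994 in the report's fit). No paired analysis was possible because CD8 Treg is 1 library, so the groups compared share fewer than 2 replicate numbers. Every setting uses that same CD8 Treg library, so an unchanged sign does not show how another CD8 Treg library would differ. Depth limits low genes: 0 reads allow up to 0.494 RPM in CD8 Treg.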

Other observations

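All genes in this section were chosen after their values were seen and stand in none of the lists. Among signalling genes, Cish, a feedback inhibitor of cytokine signalling, was at 0.491 RPKM in CD8 Treg, against 28.0 and 23.6 in CD4 Treg and 2.78 and 7.49 in CD49lo. The ATP receptor gene P2rx7 was at 2.64 RPKM in CD8 Treg, against 33.5 and 35.6 in CD4 Treg and 4.80 and 5.52 in CD49lo, and the growth factor receptor gene Igf1r at 2.42 RPKM in CD8 Treg, 30.9 and 27.4 in CD4 Treg and 3.63 and 1.76 in CD49lo. These 3 were called lower in CD8 Treg than in CD4 Treg. The phosphodiesterase gene Pde3b was at 39.6 RPKM in CD8 Treg, against 1.25 and 1.26 in CD4 Treg and 32.6 and 26.2 in CD49lo (log2 difference 4.62 ± 0.20), and Plek, which encodes pleckstrin, at 68.98 RPKM in CD8 Treg, compared to 1.69 and 2.02 in CD4 Treg and 58.5 and 62.1 in CD49lo (4.99 ± 0.18).

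Some genes separated CD8 Treg from the other 4 libraries. Ptms, which encodes parathymosin, was at 12.5 RPKM in CD8 Treg, against 143 and 153 in CD4 Treg and 121 and 108 in CD49lo (log2 difference -3.41 ± 0.16 from CD4 Treg and -3.02 ± 0.16 from CD49lo, limma adjusted p = 2.72e-06 and 8.50e-05). Klra13-ps, a pseudogene of the Ly49 cluster, was at 229.5 RPKM in CD8 Treg, against 0.198 and 0 in CD4 Treg and 5.58 and 5.61 in CD49lo, above every intact Ly49 gene in CD8 Treg. The joining segment Trdj1 of the delta T cell receptor was without a read in CD4 Treg and was at 58.1 RPKM in CD8 Treg, with 2.35 and 5.97 in CD49lo. It is only 51 bases long, so few reads give a high RPKM. These values rest on 18 reads in CD8 Treg and 1 and 2 in CD49lo, at least 11.5-fold higher in CD8 Treg than in CD4 Treg.

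The ribosomal protein gene Rpl29 was at 227 RPKM in CD8 Treg, against 1724 and 1850.0 in CD4 Treg and 169 and 146 in CD49lo, while the predicted gene Gm8210 was at 206 RPKM in CD8 Treg, compared to 0 and 0.3805 in CD4 Treg and 206 and 166 in CD49lo. The split of the 2 genes between libraries is the same as that of Xist and Ddx3y. The immunoglobulin light chain gene Igkc was at 848 RPKM in CD8 Treg, against 49.9 and 27.3 in CD4 Treg and 1514 and 1322 in CD49lo, in the order of the summed B cell list.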
